A study of Mus musculus with 40 samples.

Results

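Gastrocnemius muscle of mice with access to a running wheel by day was compared with that of mice with access by night, both sampled at zeitgeber time (ZT) 16, the hours being counted from lights on. The comparison rests on the 4 libraries titled DA at ZT16 against the 4 titled CTRL at ZT16, 8 of the 40 libraries in the study, and it was made over all genes. All 8 came from C57BL/6 mice with no transgene or drug in the labels, so wheel access by day or by night is the only labelled difference between the groups. The hours of access, the distance run, and the age and sex of the mice are not given in the sources used here, so each value below belongs to a schedule and not to a measured amount of running. The gastrocnemius libraries of the same 2 schedules at ZT4, 4 per group, served as a reference and share no library with the ZT16 groups.

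Skeletal muscle keeps its own circadian clock, in which BMAL1 (gene symbol Arntl) and CLOCK switch on the Per, Cry and Nr1d genes through E-box sequences, and their products act back on the 2 activators. Contraction itself also acts on transcription: calcium, stretch, heat and energy demand induce short-lived transcripts such as the Nr4a and Fos families, heat shock genes and the coactivator gene Ppargc1a. Mice are active mainly in the dark, so wheel access by day places running in their usual rest phase. A muscle sampled at a single hour therefore carries clock phase, recent contraction and feeding state together.

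Library totals at ZT16 ran from 45337772 to 65131816 estimated counts, and 14523 genes passed the filter on low counts. Spearman correlations between pairs of the 8 libraries lay between 0.992 and 0.997. All 8 markers of skeletal muscle fibres were measured, and the summed level of each of the 13 lists of cell type markers overlapped between the schedules, as 78100 to 82600 against 78900 to 88600 CPM, the count scaled to a library of fixed size for muscle fibre markers and 156 to 207 against 161 to 192 CPM for adipocyte markers (night against day). The summed level of 11 slow fibre genes was 1720, 1950, 1290 and 1450 CPM in the night libraries and 1390, 955, 1440 and 595 CPM in the day libraries. Day replicate 4 was the lowest of the 8 and replicate 2 the next, while the groups overlapped. These are bulk libraries, so fewer cells of a type and less RNA per cell cannot be told apart.

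At ZT16 the schedules differed in few genes and by small amounts. Of 14523 genes, 82 passed an adjusted p of 0.05 (0.565%), 42 lower and 40 higher with day access, by edgeR's quasi-likelihood test with Benjamini-Hochberg adjustment. Only 8 of them differed by 2-fold or more, 6 of these lower, and the median size was 0.41 on the log2 scale. In each of the 82 the 4 night libraries did not overlap the 4 day libraries, which held for 6.67% of all genes tested. The calls rest on these same libraries, so the separation largely follows from the choice of genes and nothing is read from it. At an unadjusted p under 0.05 there were 1942 genes (13.4%). The count moved with single libraries, falling to 51 without night replicate 2, 29 without night replicate 3, 36, 28 and 19 without day replicates 2, 3 and 4, and reaching 163 without night replicate 1. A fit of only the 8 ZT16 libraries, which takes no estimate of spread from the ZT4 groups, called 35 genes, and 56 of the 82 were lost. With library totals as the only scaling the split was 21 higher and 52 lower. With the slow fibre score as a covariate it was 23 higher and 56 lower (79 in all, 48 of them among the 82). Of the 82, 14 were called in all 17 alternatives. Falls are described before rises, and within each direction the genes among these 14 come before the less stable ones. The exception is Otud1, called in 16 of 17, which is described among the stable falls.

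**Figure D1:**
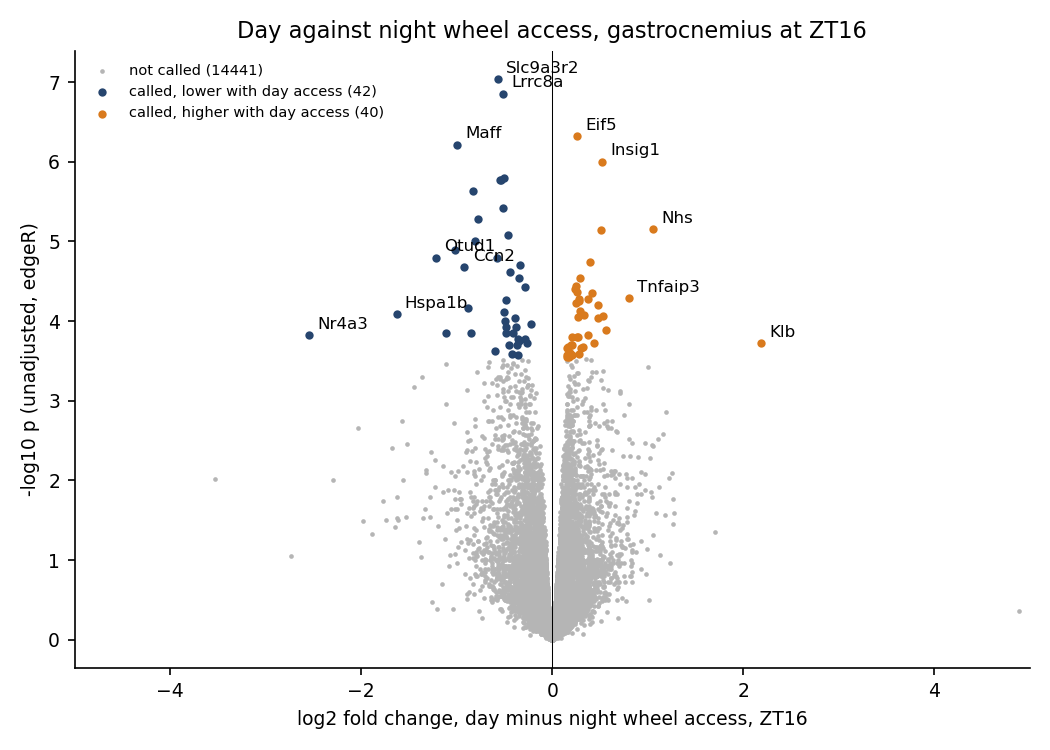
Each point is 1 of 14523 genes, with the log2 fold change (day minus night wheel access, ZT16) on the horizontal axis and −log10 of the unadjusted p on the vertical axis. The 42 genes called lower (blue) and 40 called higher (orange) with day access mostly lie within 1 log2 unit of 0, and Nr4a3 at −2.55 is the called gene farthest to the left.

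The smallest p belonged to Slc9a3r2 (gene 65962, chromosome 17, 24639281 to 24650305 in GRCm38.p6), which encodes NHERF2, a PDZ-domain scaffold for membrane transporters and receptors. Its level was 40.4, 49.7, 51.6 and 44.0 CPM in the night libraries and 32.2, 31.0, 31.3 and 30.9 CPM in the day libraries. Every day library lay below every night library, and the day libraries lay close together. The gene fell by 0.57 on the log2 scale (SE 0.067, adjusted p = 0.001). At ZT4 the order was turned round, with 24.9 ± 2.31 CPM by night and 47.3 ± 0.643 CPM by day (SD, n = 4), and the difference between the 2 effects was −1.49 (SE 0.096, adjusted p = 5.5e-08).

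Lrrc8a, the obligatory subunit of the volume-regulated anion channel, had 18.1, 20.7, 20.7 and 20.9 CPM by night and 15, 15.3, 13 and 13.1 CPM by day. It fell by 0.51 (SE 0.063, adjusted p = 0.001). Maff, a small MAF transcription factor that is also an immediate early gene, had 2.48, 2.61, 3.68 and 2.62 CPM by night and 1.42, 1.48, 1.43 and 1.33 CPM by day. Both genes were lower in all 4 day libraries, and Maff fell by 1.00 (SE 0.14, adjusted p = 0.0022), with night replicate 3 as the highest library. Otud1, a deubiquitinase gene, had another large fall, from 16.9, 19.5, 14.5 and 18.6 CPM by night to 7.79, 6.22, 6.76 and 9.12 CPM by day. Its fold change was −1.22 (SE 0.19, adjusted p = 0.013), and the adjusted p was 0.051 without day replicate 3.

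Upstream sequence of these 3 genes is shown as examples, picked one by one. Each fell at ZT16, rose at ZT4 and carries an E-box, the site bound by clock activators. Atp6v1a and Inf2 were also called lower at ZT16 and higher at ZT4 and hold an E-box, and they are not shown. The 3 genes therefore do not stand for all that meet this description. The bases are RefSeq's for GRCm38.p6, plus strand, and end before the first exon they would reach. Capitals mark the E-box CACGTG and the cAMP response element (CRE) TGACGTCA or its half-site TGACG, on either strand. The spans are chr15:79347270-79347519 for Maff, chr2:30237519-30237714 for Lrrc8a and chr2:19657481-19657730 for Otud1. RefSeq gives 3 starts for Maff, and the one whose upstream bases hold the most matches is shown. That span lies inside the annotated Maff gene, which runs from 79346621 to 79359078.
Maff: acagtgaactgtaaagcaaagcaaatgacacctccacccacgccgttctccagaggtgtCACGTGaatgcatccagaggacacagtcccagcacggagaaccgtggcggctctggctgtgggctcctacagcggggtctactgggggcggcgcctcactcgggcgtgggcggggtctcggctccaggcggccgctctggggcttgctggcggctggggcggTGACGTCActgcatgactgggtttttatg
Lrrc8a: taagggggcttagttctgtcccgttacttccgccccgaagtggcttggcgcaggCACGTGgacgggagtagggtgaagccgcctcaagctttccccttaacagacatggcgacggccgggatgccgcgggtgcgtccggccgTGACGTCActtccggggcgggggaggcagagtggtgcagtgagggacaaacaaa
Otud1: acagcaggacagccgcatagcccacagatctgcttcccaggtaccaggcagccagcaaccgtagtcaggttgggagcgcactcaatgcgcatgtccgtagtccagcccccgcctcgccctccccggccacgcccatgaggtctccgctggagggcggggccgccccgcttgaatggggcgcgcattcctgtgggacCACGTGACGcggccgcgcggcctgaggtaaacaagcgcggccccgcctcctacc

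In Otud1 the E-box and a CRE half-site overlap, and in Maff and Lrrc8a the full CRE holds a half-site on each strand. Over windows of 250 bases before to 50 after each start, CACGTG was found in 7 of 56 promoters of the 35 matched genes that fell, in 2 of 39 (5.13%) of the 30 matched genes that rose, and in 7.15% of all 32851 promoters. It was in 4 of 16 core clock promoters (25%), those of Bhlhe41, Ciart, Cry1 and Per1. The D-box TTATGTAA was in none of the promoters of the genes that fell or rose and in 0.938% of all, and the nuclear receptor half-site AGGTCA in 5 of 56 (8.93%), 6 of 39 (15.4%) and 16.3%. The CRE was searched after the values were seen. TGACGTCA occurred in 2 of the 56 promoters (3.57%), those of Maff and Lrrc8a, in 0 of 39 and in 1.79% of all, while TGACG, which lies inside it, occurred in 19 of 56 (33.9%), 9 of 39 (23.1%) and 20.8%. These are matches of letters and not measured binding sites.

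The other 8 genes that fell in all 17 alternatives were Mcf2l, Trim47, Adgrg1, Wdr90, Zfp36, Fgfr3, Midn and Tcim, of which Trim47, Adgrg1, Zfp36 and Midn are named because of that count, after their values were seen. Fgfr3, a receptor for fibroblast growth factors, was at 5.12, 4.43, 6.09 and 5.10 CPM by night and 3.59, 2.83, 2.57 and 3.09 CPM by day. Mcf2l, an exchange factor for small GTPases, was at 25.8, 28.1, 28.8 and 26.6 CPM by night and 17.6, 19.5, 18.2 and 19.7 CPM by day. Zfp36 encodes tristetraprolin, which directs AU-rich mRNAs to decay, and was at 11.8, 11.6, 11.7 and 10.6 CPM by night and 6.66, 8.19, 8.44 and 8.42 CPM by day. No day library of these 3 genes reached a night library. Their log2 fold changes were −0.78 (SE 0.12, adjusted p = 0.007) for Fgfr3, −0.54 (SE 0.079, adjusted p = 0.0031) for Mcf2l and −0.52 (SE 0.081, adjusted p = 0.0055) for Zfp36. The remaining 5 had fold changes of −0.83 (Wdr90), −0.81 (Tcim), −0.55 (Adgrg1, an adhesion G protein-coupled receptor), −0.50 (Trim47, a ubiquitin ligase) and −0.46 (Midn, which delivers nuclear proteins to the proteasome).

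The largest fall was that of Nr4a3, the orphan nuclear receptor NOR-1, which contracting muscle induces within hours. Its level was 2.93, 5.92, 12 and 8.12 CPM in the night libraries and 1.86, 1.12, 1.33 and 0.715 CPM in the day libraries. The groups did not overlap, but the night libraries spanned a wide range with replicate 3 highest and replicate 1 lowest. The fold change was −2.55 (SE 0.47, adjusted p = 0.038), and the call was kept in 6 of the 17 alternatives. Leaving out night replicates 2, 3 and 4 gave adjusted p values of 0.061, 0.086 and 0.058, and leaving out day replicates 1 to 4 gave 0.053, 0.1, 0.094 and 0.13, with fold changes between −2.20 and −2.78. With only the 8 ZT16 libraries fitted, the adjusted p was 0.15. The Nr4a3 window holds 4 matches to TGACG on the 2 strands and no full CRE. TGACG was searched after the values were seen and occurs in 20.8% of all promoters. The number of matches per promoter was not compared. Beside Nr4a3, the gene Ccn2, which encodes a matrix-associated growth factor and responds to stretch, had 24.0, 23.9, 30.9 and 29.0 CPM by night and 12.7, 17.2, 13.6 and 13.4 CPM by day. Ccn2 fell by 0.92 (SE 0.15, adjusted p = 0.014), with 0.052 and 0.066 when day replicates 3 and 4 were left out.

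Other large falls were those of Hspa1b, Csrnp1, Tinagl1 and Bcl2l1. Csrnp1, a nuclear protein gene of the immediate early class, fell by 0.88, Tinagl1, a matrix protein gene, by 0.60, and Bcl2l1, which encodes the survival protein BCL-XL, by 0.58. Bcl2l1 had 14.5, 11.5, 14.9 and 16.8 CPM by night against 9.72, 11.1, 8.57 and 9.32 CPM by day, so night replicate 2 lay only just above day replicate 2. These calls were kept in 11 (Csrnp1), 6 (Tinagl1) and 14 (Bcl2l1) of the 17 alternatives. Each was lost without day replicate 3 (adjusted p of 0.078, 0.11 and 0.051 in that order) and without day replicate 4 (0.073, 0.12 and 0.062). Csrnp1 and Tinagl1 were lost without night replicates 2 (0.065 and 0.1) and 3 (0.082 and 0.11), and without day replicates 1 (0.056 and 0.07) and 2 (0.052 and 0.11). With only the 8 ZT16 libraries fitted, Tinagl1 was at an adjusted p of 0.2 and Bcl2l1 at 0.08. Nfe2l2, the antioxidant regulator NRF2, was at 38.5, 40.9, 41.6 and 41.4 CPM by night and 33.8, 33.0, 28.9 and 32.3 CPM by day, a fall of 0.34 (SE 0.061, adjusted p = 0.014). It was kept in 14 of 17, with 0.051, 0.052 and 0.053 without night replicate 3 and day replicates 3 and 4.

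**Figure D2:**
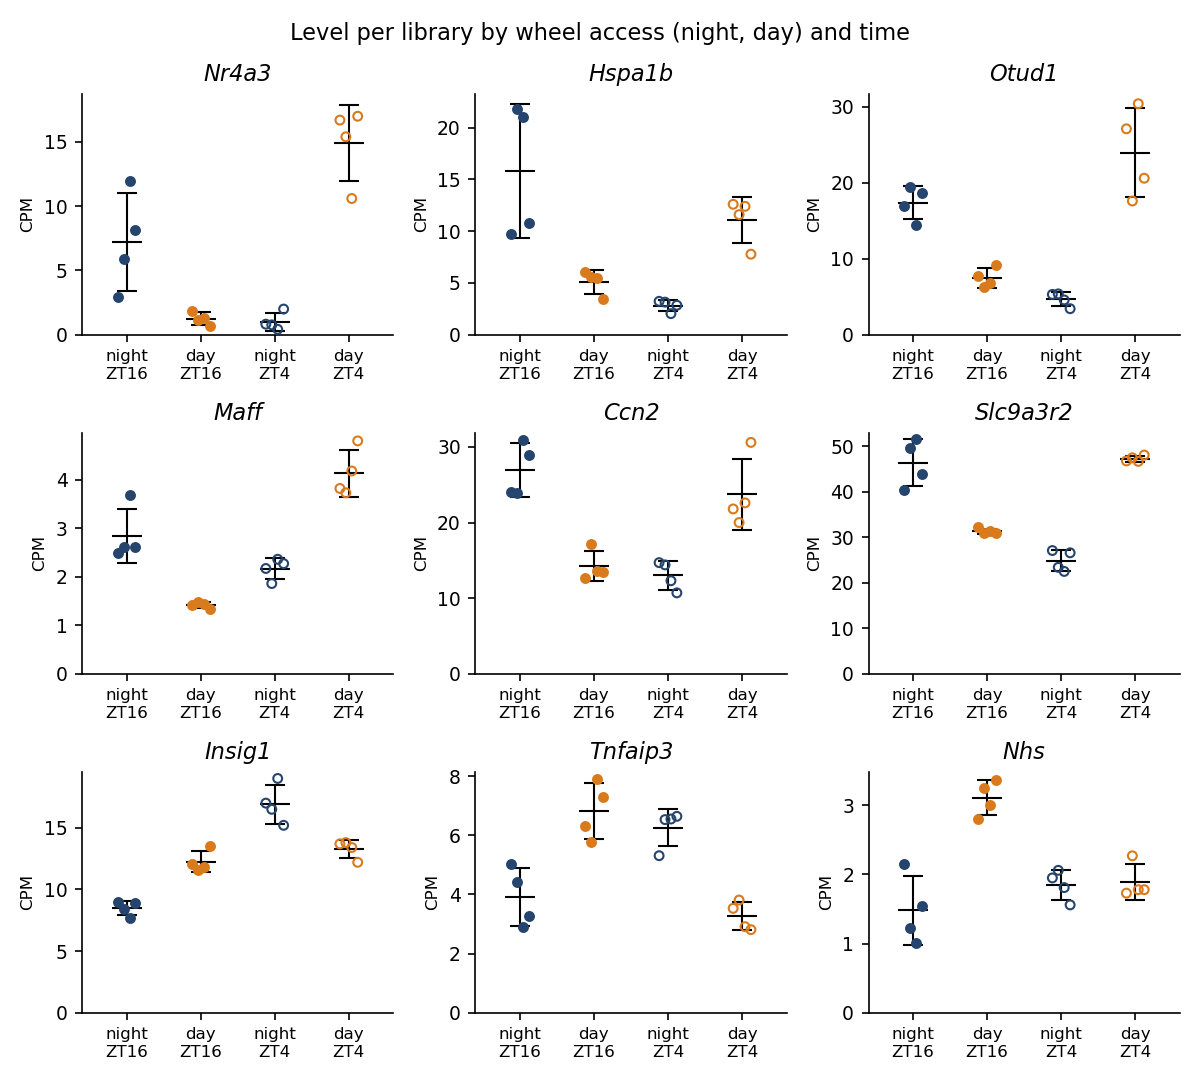
Level in CPM (vertical axes, from 0) of 9 genes in each library of the 4 gastrocnemius groups, night access in blue and day access in orange, ZT16 filled and ZT4 open, with the mean and SD of 4 libraries in black. Nr4a3, Hspa1b, Otud1, Maff, Ccn2 and Slc9a3r2 are lower by day at ZT16 and higher by day at ZT4, Insig1 and Tnfaip3 show the opposite order, and Nhs is higher by day at ZT16 with overlapping groups at ZT4.

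Among the genes that rose, 3 were called in all 17 alternatives. Eif5, a translation initiation factor named after its values were seen, had 124, 129, 123 and 123 CPM by night and 152, 146, 154 and 147 CPM by day, a rise of 0.26 (SE 0.035, adjusted p = 0.0022). Insig1, the sterol sensor that holds the SREBP activator complex in the endoplasmic reticulum, had 9.02, 8.44, 7.71 and 8.88 CPM by night and 12.1, 11.6, 11.8 and 13.5 CPM by day. It rose by 0.52 (SE 0.074, adjusted p = 0.003). Zfp521, a zinc finger cofactor gene, rose by 0.51 (SE 0.082, adjusted p = 0.0081), with 12.7 ± 0.705 CPM by night and 18 ± 2.18 CPM by day (SD, n = 4). The day libraries of all 3 genes lay above the night libraries, and the size was under 1.5-fold in each.

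Nhs, a regulator of actin remodelling, showed the largest rise of the genes at or above an average log2 CPM of 1, with 2.15, 1.23, 1.01 and 1.54 CPM by night and 2.80, 3.25, 3.01 and 3.37 CPM by day. The change was 1.06 (SE 0.17, adjusted p = 0.0081), with an adjusted p of 0.051 when only the 8 libraries compared were fitted. Tnfaip3, which encodes A20, an inhibitor of NF-kB signalling, had 5.02, 4.43, 2.91 and 3.28 CPM by night and 6.33, 5.77, 7.90 and 7.29 CPM by day. It rose by 0.80 (SE 0.15, adjusted p = 0.024), with 0.075 without night replicate 3 and 0.075 and 0.083 without day replicates 3 and 4. With only the 8 libraries fitted, Tnfaip3 was at 0.11. Relt, a receptor of the TNF receptor superfamily, rose by 0.56 and Wdr6, a WD-repeat protein gene, by 0.53. The other 6 of the 12 largest rises were Slc16a9 (0.48, a monocarboxylate transporter family member), Zfp354c (0.48), Arhgap20 (0.44, a GTPase-activating protein), Sh3bp5 (0.42), Afdn (0.40, the junction adaptor afadin) and Uri1 (0.37). Of the 17 alternatives, between 6 (Arhgap20) and 14 (Afdn) kept the call of these 8 genes. Without day replicate 4, 8 of 8 lost it, with adjusted p values of 0.062 (Afdn) to 0.13 (Arhgap20), and without day replicate 3 all but Slc16a9, with 0.052 (Afdn) to 0.094 (Relt). Without night replicate 3 the values were 0.093 for Relt, 0.086 for Wdr6, 0.079 for Zfp354c, 0.11 for Arhgap20, 0.081 for Sh3bp5 and 0.085 for Uri1. Other single libraries (night replicates 2 and 4, day replicates 1 and 2) took individual genes to between 0.05 and 0.11. Fitting only the 8 libraries took Slc16a9 to 0.063, Zfp354c to 0.14, Arhgap20 to 0.068 and Afdn to 0.057. Klb, the FGF21 co-receptor, is named after its values were seen as the other rise of 2-fold or more. It was barely detected, at 0.0552, 0.0552, 0.0877 and 0.077 CPM by night against 0.219, 0.216, 0.212 and 0.598 CPM by day, and its call (adjusted p = 0.042) was kept in 5 of the 15 alternatives in which it was tested, with an adjusted p of 0.16 without day replicate 4.

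Immediate early genes, which encode transcription factors made within minutes of a stimulus, gave 3 falls (0.289% of all genes) and no rise among 24 measured members. The 3 were Maff, Csrnp1 and Nr4a3. The fold change was negative in 23 of the 24, the unadjusted p was under 0.05 in 16, all lower (6.77% of all genes), and the night libraries lay wholly above the day libraries in 12 (3.17% of all genes). The median fold change was −0.54, against 0.00 over all genes tested. Junb, a subunit of the AP-1 factor, was next in order of p, with 4.08, 5.09, 6.95 and 5.05 CPM by night, 3.52, 3.07, 3.80 and 2.97 CPM by day, a fold change of −0.66 (SE 0.15) and an adjusted p of 0.054. At ZT4 the list had 9 rises and no fall with day access and a median of 0.15, where 6.36% of all genes rose.

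Heat shock and chaperone genes, which protect proteins under heat and mechanical load, gave 1 fall among 27 (0.289% of all genes fell). Hspa1b, an inducible HSP70 gene, had 9.73, 21.8, 21.0 and 10.8 CPM by night and 6.06, 5.57, 5.45 and 3.42 CPM by day. Night replicates 2 and 3 were at about the same high level, replicates 1 and 4 lower, and no day library overlapped them. The fold change was −1.63 (SE 0.29, adjusted p = 0.029), and the call was kept in 9 of 17, with adjusted p values of 0.061 and 0.082 without night replicates 2 and 3 and 0.072, 0.075 and 0.09 without day replicates 2, 3 and 4. With only the 8 ZT16 libraries fitted, the adjusted p was 0.17. Hspa1a, its near-identical neighbour, had 13.5, 30.0, 30.5 and 14.1 CPM by night and 10.7, 8.07, 9.23 and 6.26 CPM by day, with a fold change of −1.36 and an adjusted p of 0.062. Reads that fit both genes are divided by a model, so the values of each alone are uncertain. Hspb1, the small heat shock protein HSP27, was at −0.47 (adjusted p = 0.062) and Hsph1, an HSP110 family member, at −0.31 (adjusted p = 0.1). Of the 27, 25 had negative fold changes, 19 had an unadjusted p under 0.05, all lower (6.77% of all genes), and 6 had night libraries wholly above the day libraries (3.17% of all genes). The list's median was −0.16 at ZT16, and at ZT4 it had 10 rises, 1 fall and a median of 0.17 (6.36% of all genes rose and 6.78% fell).

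**Figure D3:**
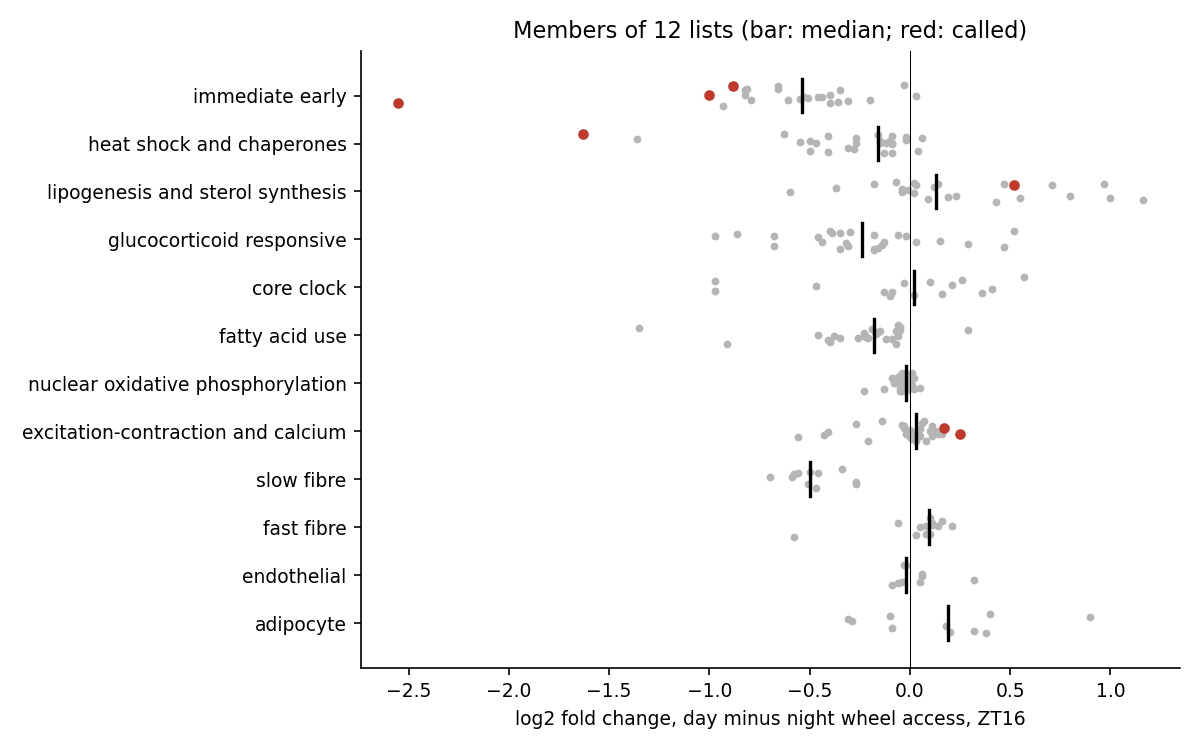
Log2 fold change at ZT16, day minus night (horizontal axis), of each measured member of 12 gene lists (rows, vertical scatter without meaning), with the list's median as a black bar and called genes in red. Red points lie among immediate early genes (3), heat shock and chaperone genes (1), lipogenic and sterol genes (1) and calcium-handling genes (2), and the medians run from −0.54 for immediate early genes to 0.19 for adipocyte markers.

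Genes of lipogenesis and sterol synthesis make fatty acids and cholesterol. Of 24 members, Insig1 rose (0.275% of all genes) and none fell, 11 had an unadjusted p under 0.05 with a higher level by day (6.6% of all genes), and 10 had day libraries wholly above the night libraries (3.5% of all genes). In the opposite direction, 2 members had an unadjusted p under 0.05 (6.77% of all genes). Only 1 had night libraries wholly above the day libraries (3.17% of all genes). The median fold change was 0.13. Scd1, which desaturates fatty acids, had 102, 94.3, 79.2 and 94.4 CPM by night and 212, 138, 176 and 211 CPM by day, without overlap, at 1.00 (SE 0.21, adjusted p = 0.055). Acly, which supplies cytosolic acetyl-CoA, had 19.2, 19.3, 18.4 and 20 CPM by night and 30, 26, 32.3 and 36.9 CPM by day, at 0.71 (SE 0.16, adjusted p = 0.07). Both genes separated the groups without passing the adjusted threshold. At ZT4 the list had 3 rises (6.36% of all genes), 8 falls (6.78%) and a median of −0.08. Scd1 was at 0.96 there and rose with day access as well (adjusted p = 0.01), whereas Insig1 fell by 0.35. Adipocyte markers, which could carry lipogenic transcripts, had no call among 10, a median of 0.19 and overlapping sums. With the adipocyte score as a covariate the count at ZT16 was 82, of which 65 were among the 82 called above. That count covers all genes and says nothing about the lipogenic genes in particular.

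None of the 15 core clock genes was called at ZT16, while 7 of them were called at ZT4 (5 higher and 2 lower, beside 6.36% and 6.78% of all genes). Per2, a repressor limb gene, had 40.4, 36.1, 44.1 and 38.3 CPM by night and 27.6, 32.4, 26.3 and 28.1 CPM by day at ZT16. The libraries did not overlap, and the fold change was −0.47 (SE 0.19, adjusted p = 0.29). At ZT4 the same gene was at 2.48 ± 0.535 CPM by night and 16.9 ± 5.55 CPM by day (SD, n = 4), a rise of 2.75, and the 2 effects differed by −3.22 (SE 0.30, adjusted p = 4.4e-05). With only the 8 ZT16 libraries in the fit, Per2 passed the threshold. Per1 had 56.4, 22.9, 40.7 and 72.8 CPM by night and 23.6, 26.9, 25.5 and 22.3 CPM by day, with a fold change of −0.97 (adjusted p = 0.25). Night replicate 2 lay within the day range, while the other night libraries lay above it.

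In Per1, Dbp, Nr1d1 and Ciart night replicate 2 was the lowest and replicate 4 the highest of the night libraries. Dbp, a clock-controlled transcription factor, had 63.3, 51.2, 51.8 and 90.3 CPM by night and 39.8, 54.2, 40.4 and 39.9 CPM by day, at −0.56 (adjusted p = 0.17). Nr1d1, the repressor REV-ERB alpha, had 35.3, 23.3, 28.3 and 46.5 CPM by night and 31.0, 38.6, 41.1 and 32.4 CPM by day, at 0.10 (adjusted p = 0.85). Arntl had 13.7 ± 5.15 CPM by night (SD, n = 4), from 6.86 to 17.7 CPM, and 19.3, 16.1, 16.6 and 17.6 CPM by day, at 0.36 (adjusted p = 0.54). In Per1, Dbp and Nr1d1 night replicate 4 was the highest library of the 8, and in Arntl, which peaks opposite to them, it was the lowest. Ciart, a repressor of CLOCK and BMAL1, had 2.37, 1.58, 1.78 and 4.67 CPM by night and 1.35 ± 0.128 CPM by day (SD, n = 4), with 1.53 CPM as the highest day library, at −0.97 (adjusted p = 0.25).

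Bhlhe41, the repressor DEC2, came nearest to a call among clock genes, with 37.9, 29.1, 28.5 and 41.8 CPM by night and 45.5, 43.1, 46.4 and 47.0 CPM by day. Its fold change was 0.41 (SE 0.10, adjusted p = 0.086), without overlap. Clock itself was at 0.26 (adjusted p = 0.12) and Cry1, a repressor, at 0.21 (adjusted p = 0.23). The rest lay closer to 0 or had wider errors: Npas2 0.57 (SE 0.35), Per3 −0.13, Nr1d2 −0.10, Cry2 −0.09 and Bhlhe40 0.02. The clock-controlled bZIP genes Tef, Hlf and Nfil3 were at 0.00, −0.07 and −0.23. The list's median was 0.02 at ZT16, with 3 members higher and 3 lower at an unadjusted p under 0.05 (6.6% and 6.77% of all genes). Of 13 clock output genes, of which Ciart is also in the core clock list, none was called. The fold change was negative in 12 of them, and the median was −0.20. The unadjusted p was under 0.05 in 7, all lower (6.77% of all genes), and the night libraries lay wholly above the day libraries in 3 (3.17% of all genes). Among the smallest p were Pim3, a kinase gene (−0.46, adjusted p = 0.09), Wee1, a cell cycle kinase gene (−0.34, adjusted p = 0.14), and Usp2, a deubiquitinase gene (−0.20, adjusted p = 0.19).

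**Figure D4:**
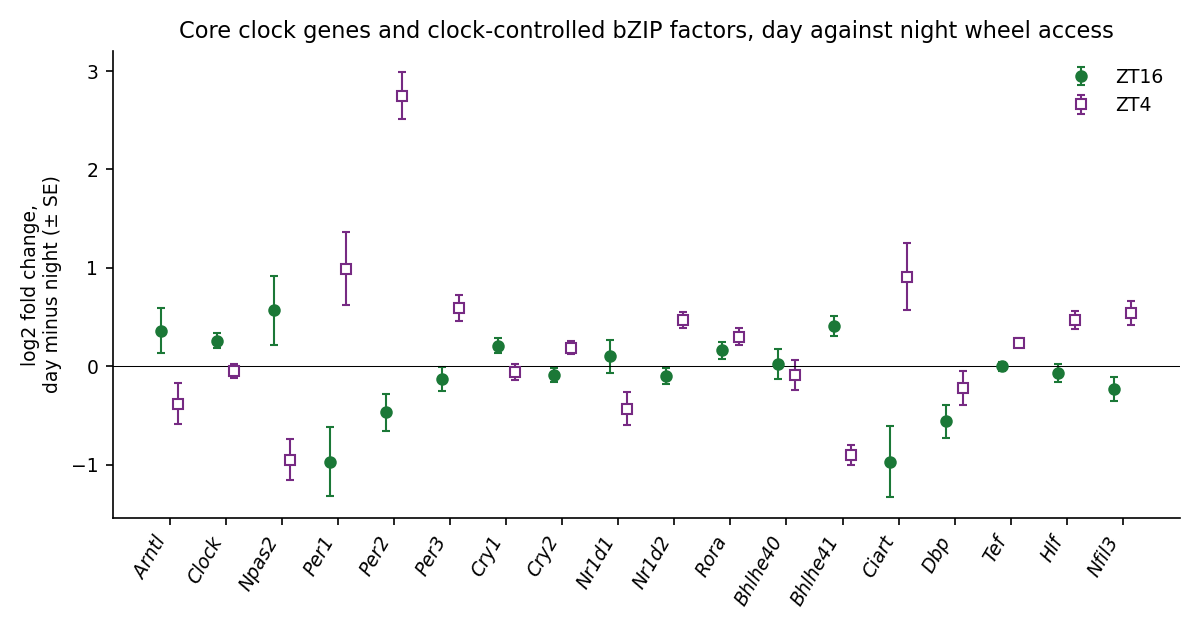
Log2 fold change (day minus night wheel access, vertical axis) with its standard error for clock and clock-controlled genes at ZT16 (green circles) and ZT4 (open purple squares). Values at ZT16 lie between −0.97 and 0.57, and the largest separation of the 2 times is that of Per2, at −0.47 and 2.75.

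Ppargc1a, the exercise-induced coactivator PGC-1 alpha, was at 34.5, 42.8, 73.6 and 36.5 CPM by night and 33.1, 33.0, 34.1 and 34.8 CPM by day at ZT16. Night replicate 3 was the highest library, as it was for Nr4a3, and night replicate 1 lay inside the day range. The fold change was −0.47 (SE 0.23, adjusted p = 0.4), against a rise of 2.32 at ZT4, and the effects differed by −2.79 (adjusted p = 0.00026). The 15 genes of the PGC-1 and nuclear receptor list had no call and a median of −0.01, with Rxrg, a retinoid X receptor, at 0.20 (adjusted p = 0.097) and Ppara, a fatty acid sensor, at −0.59 (adjusted p = 0.22). None of the 29 nuclear genes of oxidative phosphorylation was called (median −0.02), and none of the 13 mitochondrially encoded genes (median 0.08).

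Fuel use genes carried negative values without a call. Of 26 fatty acid genes, 25 had negative fold changes, 8 had an unadjusted p under 0.05, all lower (6.77% of all genes), and the median was −0.18. Lipe, hormone-sensitive lipase, was at −0.26 (adjusted p = 0.11) and Cpt2, a mitochondrial carnitine acyltransferase, at −0.22 (adjusted p = 0.14), with Hadha, a subunit of the trifunctional protein of beta-oxidation, at −0.16 (adjusted p = 0.27). Pdk4, which blocks glucose oxidation when fat is burnt, had 270, 226, 301 and 518 CPM by night and 179, 98.4, 162 and 77.0 CPM by day. The groups did not overlap, but at a fold change of −1.35 the standard error was 0.55 (adjusted p = 0.3). Ucp3, which follows fatty acid supply, had 113, 124, 166 and 188 CPM by night and 106, 55.1, 82.3 and 71.5 CPM by day, at −0.91 (adjusted p = 0.44). The summed slow fibre level, lower in day replicates 4 and 2, was lowest in 2 of the libraries that were also lowest for Pdk4, and its part in these values was not tested.

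Hk2, the muscle hexokinase, had 451, 388, 446 and 463 CPM by night and 383, 390, 330 and 385 CPM by day, at −0.23 (adjusted p = 0.28). None of the 30 genes of glucose and glycogen handling was called, and their median was 0.03. The ubiquitin ligase genes of atrophy were close to 0 relative to their error, Fbxo32 at −0.31 (SE 0.27) and Trim63 at −0.18 (SE 0.16), and none of 27 genes of protein degradation and autophagy was called. Within that list Gabarapl1, an autophagosome protein gene, had 52.1, 54.4, 52.8 and 47.0 CPM by night and 39.8, 35.7, 38.5 and 35.7 CPM by day, at −0.46 (adjusted p = 0.059), and Cblb, a ubiquitin ligase gene, was at −0.27 (adjusted p = 0.092). Tfrc, the transferrin receptor, had 80.5, 84.3, 74.9 and 104 CPM by night and 112, 116, 103 and 125 CPM by day, at 0.41 (SE 0.088, adjusted p = 0.052). For Tfrc only day replicate 3 and night replicate 4 overlapped.

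Of 30 genes of excitation-contraction coupling and calcium, 2 rose (0.275% of all genes) and none fell. At an unadjusted p under 0.05, 6 were higher (6.6% of all genes) and 2 lower (6.77%), and the libraries separated with day higher in 3 (3.5%) and with night higher in 2 (3.17%). Asph, whose locus also encodes the sarcoplasmic reticulum proteins junctin and junctate, had 132, 133, 144 and 144 CPM by night and 156, 163, 164 and 173 CPM by day, a rise of 0.25 (SE 0.048, adjusted p = 0.025). Ppp3cb, a catalytic subunit of the calcium-dependent phosphatase calcineurin, had 203, 189, 201 and 202 CPM by night and 218, 218, 224 and 233 CPM by day, a rise of 0.17 (SE 0.036, adjusted p = 0.043). The calls were kept in 11 and 6 of 17 alternatives, and both were lost without night replicate 2 (adjusted p of 0.061 and 0.11), day replicate 2 (0.055 and 0.072), day replicate 3 (0.066 and 0.097) and day replicate 4 (0.09 and 0.15). Ppp3cb was also lost without night replicates 3 and 4 (0.088 and 0.056), and with library totals as the only scaling both were lost (0.056 and 0.074). Both were lost as well with only the 8 ZT16 libraries fitted (0.08 for Asph and 0.18 for Ppp3cb). Casq1, the calcium store protein of fast fibres, was at 0.14 (adjusted p = 0.21) and Nfatc3, a calcineurin target, at 0.16 (adjusted p = 0.17). The list's median was 0.03.

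Fibre type genes were not called. The 11 slow fibre genes all had negative fold changes with a median of −0.50, and 1 had an unadjusted p under 0.05 (6.77% of all genes were lower at that p). Myh7, the slow myosin heavy chain, had 437 ± 87.8 CPM by night (SD, n = 4), from 339 to 534 CPM, and 388, 249, 398 and 130 CPM by day, at −0.59 (SE 0.49, adjusted p = 0.66). Myh2, the IIa myosin, was at −0.58 (SE 0.26, adjusted p = 0.37) with 1260 CPM in day replicate 4, and Myh4, the IIb myosin, at 0.05 (SE 0.069). Both the slow and the IIa myosin were lowest in day replicate 4 and next lowest in day replicate 2. Of 14 fast fibre genes, 12 had positive fold changes with a median of 0.09, and Mylpf, the fast regulatory light chain, was at 0.21 (adjusted p = 0.055) and Tpm1, a tropomyosin, at 0.16 (adjusted p = 0.15). At an unadjusted p under 0.05, 4 of the 14 were higher (6.6% of all genes) and 1 lower (6.77%). Day libraries lay wholly above the night libraries in 3 (3.5% of all genes), and the reverse held for 0 (3.17%).

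In the remaining lists, 1 gene each fell in the antioxidant list (Nfe2l2, of 21) and the mechanical stress list (Ccn2, of 22). Over all genes, 0.289% fell. Next in order of p were Gpx3, a secreted glutathione peroxidase (−0.38, adjusted p = 0.069), and Hmox1, heme oxygenase 1 (−0.37, adjusted p = 0.14), in the first and Myf6, a myogenic factor (−0.17, adjusted p = 0.19), in the second. At an unadjusted p under 0.05, 5 antioxidant members were lower and 1 higher (6.77% and 6.6% of all genes). Of the mechanical stress members, 4 were lower and 0 higher. Night libraries lay wholly above the day libraries in 3 members of each list (3.17% of all genes). The reverse held for 1 antioxidant member (3.5% of all genes). No gene was called among 26 glucocorticoid responsive genes, whose median was −0.24, with Errfi1 at −0.35 (adjusted p = 0.15), Cebpb at −0.68 (adjusted p = 0.17), Klf15 at −0.40 (adjusted p = 0.18) and Tsc22d3 at −0.35 (adjusted p = 0.2). None was called among 25 genes of endoplasmic reticulum stress (median −0.02), 23 of hypoxia and angiogenesis (−0.05), 18 cytokine genes (−0.15), 17 myokine genes (−0.24), 26 collagens and matrix genes (−0.08), 24 genes of ribosome biogenesis (−0.01), 24 of amino acid catabolism (0.00), 16 of NAD synthesis and sirtuins (−0.04) and 17 of the cell cycle (−0.11). Il15, a cytokine made by muscle, had the smallest p of the cytokine list, at −0.41 (adjusted p = 0.074), followed by Socs3, a feedback inhibitor of cytokine signals, at −1.32 (adjusted p = 0.18). No marker gene of another cell type was called, and the medians of endothelial, fibroblast and macrophage markers were −0.02, −0.05 and −0.04. The defining neutrophil genes Ngp and Mpo reached at most 0 and 0.0197 CPM in any of the libraries, and Cd3e of T cells 0.0441 CPM.

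The ZT4 comparison showed where ZT16 differs. Day against night access gave 1907 calls at ZT4 (13.1%), 923 higher (6.36%) and 984 lower (6.78%) with TMM scaling and 590 higher and 1319 lower with library totals alone. The count was 1248 without night replicate 2, 1139 without day replicate 3 and 1196 without day replicate 4 of ZT4. Of the 82 genes called at ZT16, 47 were also called at ZT4, which is 57.3% of the ZT16 calls and 2.46% of the ZT4 calls. All but 1 of the 47 had the opposite direction: 27 fell at ZT16 and rose at ZT4, and 19 rose at ZT16 and fell at ZT4. The exception was Retsat, retinol saturase, which fell at both times, by 0.35 and 0.24. Its call at ZT16 (adjusted p = 0.042) was kept in 7 of 17 alternatives and was lost without any 1 library other than night replicate 1 and day replicate 3, with adjusted p values of 0.062 to 0.13. Counting signs only, 71 of the 82 were opposite at ZT4, against 53.9% of all genes tested.

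The difference between the effects at the 2 times was tested in the same fit and called in 1415 genes (9.74%). Among them were 38 of the 42 genes that fell at ZT16, with negative differences (5.07% of all genes), and 34 of the 40 that rose, with positive ones (4.68% of all genes). The difference contains the ZT16 effect that chose these genes, so their share is bound to exceed that of all genes and nothing is read from it. Its 8 smallest p values belonged to Slc9a3r2, Zfp512b, Mcf2l, Atp6v1a, Lrrc8a, Nfe2l2, Fgfr3 and Wdr6, which were all called at ZT16. The 42 genes that fell at ZT16 had a median of −0.50 there and of 0.38 at ZT4, and the 40 that rose had 0.28 and −0.16. Atp6v1a, a subunit of the vacuolar proton pump, fell by 0.28 at ZT16 and rose by 0.76 at ZT4, while Zfp512b, a zinc finger protein gene, rose by 0.24 and fell by 0.58. At ZT16 the call of Atp6v1a was lost without night replicates 2 and 3 (adjusted p of 0.1 and 0.12) and day replicates 1 to 4 (0.073, 0.093, 0.097 and 0.085), and that of Zfp512b without night replicate 3 (0.081) and day replicate 2 (0.064). With only the 8 ZT16 libraries fitted, Atp6v1a was at 0.15 and Zfp512b at 0.11. Wdr6 had 9.59, 8.88, 7.36 and 8.80 CPM by night and 13.1, 12.7, 12.6 and 11.7 CPM by day at ZT16, and 15 ± 1.98 and 6.95 ± 1.08 CPM at ZT4 (SD, n = 4). Nr4a3 at ZT4 was at 1.00 ± 0.685 CPM by night and 14.9 ± 2.98 CPM by day (SD, n = 4), so its 2 higher groups were night access at ZT16 and day access at ZT4. The 10 genes called at ZT16 whose effect was not called as different from that at ZT4 included Erf, Fam160a1, Retsat, Klb, Rhob, Ppp3cb, Zfp91, Desi2 and Rragd.

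**Figure D5:**
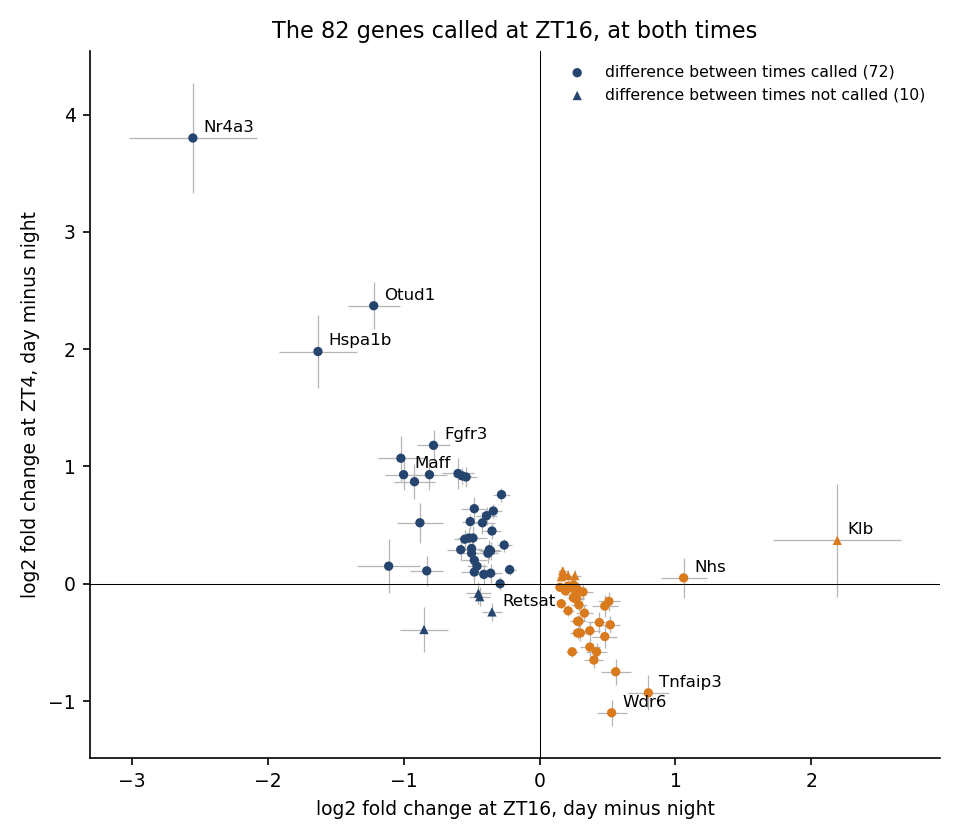
The 82 genes called at ZT16, with the log2 fold change (day minus night) at ZT16 on the horizontal and at ZT4 on the vertical axis and standard errors as grey bars; blue genes fell and orange genes rose at ZT16, circles mark the 72 whose effects at the 2 times differ by the test and triangles the 10 others. Most points lie in the upper left and lower right, with Nr4a3 at −2.55 and 3.80 farthest out.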

How the data were processed

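mRNA of snap-frozen gastrocnemius was sequenced from a stranded mRNA library kit on 2 lanes per library, per the labels' protocols. The submitters' processing notes name bcl2fastq 2.20.0.422, kallisto 0.46.2, DESeq2 1.26.0 and the builds GRCm38.p6 and mm10. The authors deposited estimated counts per gene and lane, with no normalization seen in the values. Of values below 6 whose rounded value is positive, 85.7% lie within 0.1 of a whole number. No source used here states whether counting used strand, so overlapping genes may share counts.

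Lane columns were summed per library and rounded. Gene identifiers were matched to symbols for 23614 of 23621 rows, and the 7 others hold 0.00139% of counts. The 16 gastrocnemius libraries of 4 groups entered 1 fit, edgeR 4.0.16 in R 4.3.3 with limma 3.58.1: filterByExpr with a minimum count of 10, TMM scaling and robust quasi-likelihood tests, adjusted by Benjamini-Hochberg over 14523 genes at a threshold of 0.05. Contrasts were day minus night at ZT16, the same at ZT4, and their difference. Levels are TMM-scaled CPM and fold changes are log2. Calling was also run on simulated data, with planted changes larger than most of those called here. That run therefore does not bear on the smaller calls. No 2 replicates of a ZT16 group agreed within sampling noise (lowest chi-square per degree of freedom 12.4). The labels do not say that replicates are separate animals, so p-values measure the spread between these samples, which may be technical.

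Named genes are the 12 largest rises and falls among called genes whose libraries do not overlap and whose average log2 CPM reaches 1, up to 4 lowest-p members of every list described, the 8 smallest p of the difference, and fixed clock, metabolic and myosin genes. Names added after values were seen are said to be so, and a few named genes are not reported here. The comparison, the 26 gene lists and the 13 marker lists were chosen with earlier results of these data known. The 17 alternatives were DESeq2 1.42.0, RLE scaling, library totals, no filter, only the 8 libraries, a replicate block, lane 1, slow fibre or adipocyte scores as covariates, and leaving out each of the 8 libraries. RefSeq promoters of GRCm38.p6 were searched on both strands. The other 24 libraries were not used here.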

Additional observations from a re-analysis of the deposited data

Results flagged for a closer look

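The effect of day access differed between ZT16 and ZT4 by the test of the difference in the same fit (edgeR, Benjamini-Hochberg adjusted) for most of the genes described. Many of these genes were chosen by their ZT16 effect, which the difference contains, and some by the difference itself, so nothing is read from their number. The values here are the ZT16 effect minus the ZT4 effect on the log2 scale. Negative values were largest for Nr4a3 (−6.35), Hspa1b (−3.61), Otud1 (−3.58), Per2 (−3.22), Hspa1a (−3.05) and Ppargc1a (−2.79). Among regulators and signalling genes they were −1.97 for Per1, −1.96 for Fgfr3, −1.93 for Maff, −1.90 for Ppara, −1.87 for Ciart, −1.79 for Ccn2, −1.75 for Tcim, −1.54 for Tinagl1, −1.49 for Slc9a3r2, −1.46 for Mcf2l, −1.39 for Csrnp1, −1.28 for Cebpb, −1.27 for Klf15, −1.22 for Gabarapl1 and −1.12 for Tsc22d3.

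Smaller negative differences were −1.04 for Atp6v1a and for Lrrc8a, −0.97 for Tmem204, −0.96 for Nfe2l2, −0.94 for Wdr90, −0.93 for Adgrg1, −0.92 for Pim3 and for Zfp36, −0.87 for Bcl2l1, −0.82 for Hspb1, −0.80 for Trim47 and for Inf2, −0.78 for Nfil3, −0.74 for Hk2 and −0.72 for Per3. The remaining ones were −0.68 for Errfi1, −0.66 for Wee1, −0.65 for Hspa12b, −0.64 for Notch4, −0.61 for Midn, −0.59 for Sptan1, −0.57 for Nr1d2, −0.54 for Hlf, −0.53 for Myf6, −0.51 for Hsph1, −0.49 for Usp2, −0.48 for Il15, −0.34 for Lmna and −0.23 for Tef. Positive differences were 1.74 for Tnfaip3, 1.63 for Wdr6, 1.52 for Npas2, 1.31 for Relt, 1.30 for Bhlhe41, 1.05 for Afdn, 1.01 for Nhs and 1.00 for Sh3bp5. They were 0.93 for Slc16a9, 0.91 for Uri1, 0.87 for Insig1, 0.81 for Zfp512b, 0.77 for Arhgap20, 0.67 for Zfp354c, 0.65 for Zfp521, 0.57 for Crhr2, 0.46 for Tfrc, 0.37 for Asph, 0.31 for Eif5, 0.24 for Casq1 and for Rxrg and 0.23 for Rps6ka3.

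A single library stood far from the other 3 of its group, by Dixon's criterion, in 18 of 286 sets of 4 values, where chance alone gives about 1 in 20. By night these were Maff in replicate 3 (3.68 CPM, high), Eif5 in replicate 2 (129 CPM, high), Wee1 in replicate 4 (4.99 CPM, high), and, on the low side, Wdr90 (2.73 CPM) and Zfp36 (10.6 CPM) in replicate 4, Lrrc8a in replicate 1 (18.1 CPM), and Ppp3cb (189 CPM) and Myf6 (81.3 CPM) in replicate 2. By day they were Dbp in replicate 2 (54.2 CPM, high), Hspb1 in replicate 1 (100 CPM, high), Klb in replicate 4 (0.598 CPM, high), Hk2 in replicate 3 (330 CPM, low), Il15 in replicate 4 (4.25 CPM, low) and Zfp36 in replicate 1 (6.66 CPM, low). Summed levels stood apart for adipocyte markers in 1 night library (207 CPM, high), and in 1 day library each for glucocorticoid responsive genes (2300 CPM, high), hypoxia genes (2490 CPM, high) and fibroblast markers (537 CPM, low).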

How the results depend on the processing

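The count of 82 genes at ZT16 became 374 with DESeq2 (80 of the 82 among them) and 35 when only the 8 libraries compared were fitted (26 shared). Leaving out 1 library gave 19 to 163 genes at ZT16, 1139 to 1650 at ZT4 and 1021 to 1567 for the difference. The same settings gave 2284 and 2171 genes at ZT4, and DESeq2 1670 for the difference. The other settings gave 64 to 89 genes at ZT16, 1361 to 1989 at ZT4 and 1014 to 1431 for the difference. Library totals moved the share of higher calls at ZT16 from 48.8% to 28.8%, and the slow fibre covariate to 29.1%. The median of all genes moved by at most 0.03. None of the 47 called genes named here changed direction in any alternative run. The direction turned for 4 clock genes without single libraries, where the values ran from −0.04 (without night replicate 2) to 0.31 for Nr1d1, −0.1 to 0.14 for Bhlhe40, −0.03 to 0.03 for Tef and −0.14 to 0.01 for Hlf. It turned with library totals for Bhlhe40 (−0.01) and Tef (−0.02), and with the slow fibre covariate for Tef (−0.01), Myh4 (−0.03) and Myh7 (0.05). The slow fibre score is the mean of the slow fibre genes, Myh7 among them. The covariate therefore removes the effect of Myh7, and that of the slow fibre list below, by construction. The cause of the other turns was not tested. Of 660 list medians, 5 moved beyond the spread of replicates: core clock (0.12 without day replicate 4), NAD genes (0 with the adipocyte covariate, −0.01 without night replicate 3), and, with the slow fibre covariate, slow fibre genes (−0.01) and neutrophil markers (0.23). Libraries with the same replicate number did not deviate together at ZT16 (correlations of deviations −0.05 to 0.01). At ZT4 the same-number pairs correlated at 0.12, 0.02, 0.12 and 0.15, against −0.08 to 0.03 for pairs of different numbers. The labels state no pairing. Summed slow fibre levels at ZT4 were also lowest in replicate 1 (591 CPM by night, 595 by day) and highest in replicate 3 (1510 and 2100 CPM). Whether pairing or fibre content lies behind the correlations was not tested. A replicate block gave 89 genes at ZT16 (62 shared), 1793 at ZT4 and 1349 for the difference. Genes below about 1 CPM, such as Klb and Npas2, rest on few reads and have wide errors. Neutrophil and lymphocyte markers gave no median with lane 1 alone, nor neutrophil markers with only the 8 libraries, since none passed the filter.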

Other observations

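Further genes called at ZT16 were chosen here one by one after their values were seen, and they stand for no group. Those that fell with day access included Notch4, an endothelial Notch receptor, from 17.7 to 13.6 CPM (−0.38, adjusted p = 0.035), Tmem204, an endothelial membrane protein gene, from 14.6 to 11.2 CPM (−0.39, adjusted p = 0.03), and Hspa12b, an endothelial member of the HSP70 superfamily, from 19.7 to 15.3 CPM (−0.37, adjusted p = 0.042). None of the 9 listed endothelial markers was called (median −0.02), and their summed level was 251 to 319 CPM by night and 266 to 295 CPM by day. Other falls were those of Inf2, a formin, by 0.35, Sptan1, alpha spectrin, by 0.26, Lmna, lamin A/C, by 0.22, and Rhob, a small GTPase gene, by 0.45. The calls of these 7 genes were kept in 8 (Rhob) to 13 (Inf2) of 17 alternatives. All 7 were lost without day replicate 4 (adjusted p of 0.075 to 0.12), all but Lmna without day replicate 3 (0.066 to 0.097) and all but Inf2 without night replicate 3 (0.086 to 0.13), and some without day replicates 1 and 2 or night replicates 2 and 4 (0.052 to 0.12).

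Among further genes that rose, Rps6ka3, the kinase RSK2, went from 45.9 to 53.0 CPM (0.21) and Rragd, a GTPase that brings mTORC1 to lysosomes, from 229 to 259 CPM (0.18). Crhr2, the urocortin receptor of muscle, went from 36.1 to 45.2 CPM (0.33, adjusted p = 0.03). These calls were kept in 6, 3 and 11 of the 17 alternatives in that order. All 3 were lost without night replicate 3 (adjusted p of 0.075 to 0.13) and without day replicates 2 (0.064 to 0.12), 3 (0.075 to 0.1) and 4 (0.079 to 0.15), and Rps6ka3 and Rragd also without night replicates 2 and 4 (0.076 to 0.1).

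The spread among the 4 libraries of a group differed by list. The median coefficient of variation over all genes was 8.81% by night and 8.20% by day. It was 10.8% and 4.79% for heat shock genes, with the larger value by night in 21 of 27, while core clock genes had the larger value by night in 12 of 15. For slow fibre genes it was 17.5% and 35.7%, with the larger value by day in all but 1 of 11, and for macrophage markers 10.2% and 25.1%, larger by day in all 10. Genes within a list share libraries, and no test was made of these differences.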
